A study of Mus musculus with 4 samples.

Results

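A set of receptor genes of natural killer (NK) cells were followed through single-cell transcriptomes of leukocytes from the pancreas and the pancreatic lymph node of mice with and without T cell deletion of Ocab. They are Ncr1, Klre1, Klra1, Klra4, Klra8, Klra9, Klrb1a, Klrb1b, Klrd1 and Klrk1, 10 genes matched by symbol among the 31053 listed features, and all 10 were found. The control mice carried floxed Ocab alleles (Ocab fl/fl), and the CD4-Cre mice carried the same alleles with a Cre recombinase driven by the Cd4 promoter, so both groups share the floxed locus. Pou2af1, long called Ocab, encodes a transcriptional coactivator, and the Cd4 promoter is active in developing T cells of both the CD4 and the CD8 lineage. The pancreas libraries hold CD45+ cells, flow-sorted from females at 12 weeks of age, before diabetes, with 4 mice pooled per genotype. CD3 T cells were taken by magnetic separation from pancreatic lymph nodes of prediabetic females at 8 weeks, with 5 mice pooled per genotype. Each of the 4 groups is therefore 1 library of pooled mice, and the spread between mice was not measured. The labels name no strain. The study is known to have used the nonobese diabetic (NOD) background, and that attribution does not come from the files.

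NK cells read the surface of other cells through pairs of activating and inhibitory receptors. Ncr1 encodes NKp46, an activating receptor of the immunoglobulin superfamily that marks NK cells and group 1 innate lymphoid cells (ILC1). The other genes encode lectin-like receptors of the NK gene complex. Klrk1 encodes the activating receptor NKG2D, which binds stress-induced ligands and signals through Hcst. Klrd1 encodes CD94, the partner chain of the NKG2 receptors, and Klre1 forms receptors with Klri1 or Klri2. Klrb1a and Klrb1b encode NKR-P1 receptors, the second an inhibitory one that recognises Clec2d. The Klra genes encode the Ly49 receptors, many of which bind class I major histocompatibility molecules, and each NK cell switches on only some of them. The reference versions of Klra1 (Ly49A) and Klra9 (Ly49I) are inhibitory, and those of Klra4 (Ly49D) and Klra8 (Ly49H) are activating and need the adapter Tyrobp. The number and identity of Klra copies differ between mouse strains, NOD and C57BL/6 included.

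The difference between the inhibitory and activating Klra genes can be seen at the start of their coding sequences. The lines below give the first 60 coding bases of each, 5′ to 3′, from the GENCODE M21 transcripts (GRCm38, chromosome 6, all on the - strand). Capitals mark in-frame codons of the immunoreceptor tyrosine-based inhibitory motif, at bases 16 to 33 counted from the A of the start codon.
Klra1: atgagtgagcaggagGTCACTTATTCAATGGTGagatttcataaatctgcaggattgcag
Klra9: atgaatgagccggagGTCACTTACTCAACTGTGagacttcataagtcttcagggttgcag
Klra4: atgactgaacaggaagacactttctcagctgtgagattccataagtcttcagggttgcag
Klra8: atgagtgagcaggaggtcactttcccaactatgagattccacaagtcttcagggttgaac
Klra1 and Klra9 held the motif and Klra4 and Klra8 did not. Against Klra1, both Klra4 and Klra8 carry the substitutions A23T and T24C in the tyrosine codon. Klra9 carries T24C as well and keeps the motif, so of these substitutions A23T alone sets Klra4 and Klra8 apart. Over these 60 bases Klra1 differed at 9 positions from Klra9, at 13 from Klra4 and at 13 from Klra8. Klra4 differed at 9 positions from Klra9 and at 10 from Klra8, and Klra8 differed at 10 from Klra9. The number of differences thus did not divide the inhibitory from the activating genes. Over the whole coding sequence each inhibitory gene was nearest to an activating one. Klra1 was 88.7% identical to Klra4 and Klra8 was 91.9% identical to Klra9, while the other 4 Klra pairs had 77.9% to 80.3%.

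Klrb1a (chr6:128609227-128623533), Klrb1b (chr6:128813706-128826331), Klre1 (chr6:129577905-129585827), Klrd1 (chr6:129591782-129598775) and Klrk1 (chr6:129610323-129623864) lie in this order on chromosome 6 of GRCm38. They are followed by Klra4 (chr6:130043731-130067271), Klra8 (chr6:130115226-130129898), Klra9 (chr6:130178675-130193112) and Klra1 (chr6:130363917-130386874). Ncr1 stands apart on chromosome 7 (chr7:4337724-4345164). Of the 50-base windows of its transcript, 33.1% in Klra8 and 29.98% in Klra9 also occurred in transcripts of other genes, mostly other Klra genes. That share was 28.96% in Klrb1b, 11.02% in Klrb1a, 4.68% in Klra4 and 3.15% in Klra1, and it was 0 in Ncr1, Klre1, Klrd1 and Klrk1. How reads that match several genes were counted is not given in the sources used here. A Klra or Klrb1 value therefore names the C57BL/6 reference gene to which reads were assigned, and the copy they came from in these mice is uncertain.

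After filtering, 2854 to 6253 barcodes were kept per library, with medians of 3593.5 to 4640.5 unique molecular identifiers (UMIs) per barcode, and any pair of libraries had 14 to 55 barcode sequences in common. The targeted gene was examined first. Pou2af1 had 39 UMIs over 1266 CD4 T barcodes of the control lymph node and 1 UMI over 2712 in CD4-Cre. In pancreas CD4 T barcodes it stood at 7.66 CPM (UMIs of a gene scaled to a fixed total of all UMIs, 29 UMIs) in control and 4.25 CPM (36 UMIs) in CD4-Cre. In pancreas NK barcodes, which the Cd4 promoter is not expected to reach, it had 5 and 2 UMIs.

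Cell populations were set by marker UMIs. An NK barcode had at least 1 UMI of Ncr1 and none of Cd3e or Cd3d, which gave 237 barcodes in control pancreas (5.91% of those kept, median 3743 UMIs) and 310 in CD4-Cre (4.96%, median 4054.5 UMIs). The CD3-selected lymph node held 2 such barcodes in control and 0 of 5421 in CD4-Cre, which allows a share of up to 0.0553%. All 8 NK markers were detected in at least 10% of the pancreas NK barcodes of both libraries, summing to 21125 CPM in control and 19258 CPM in CD4-Cre. Of 4 ILC3 markers, Il17a, Il22 and Il23r were at 0, and the value of the remaining marker is not given here. B cell markers summed to 2507 CPM in control NK barcodes and 288 CPM in CD4-Cre, plasma cell markers to 3841 and 37.1 CPM, and myeloid markers to 642 and 1719 CPM. The part of these other transcripts in the differences below was not tested.

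Most of the genes were detected in most NK barcodes of both pancreas libraries. Ncr1 chose these barcodes, so its share there is fixed by the rule. An NK gate that used none of the 10 genes (Nkg7 and Tyrobp present, no CD3 chain, Cd79a, Lyz2 or Csf1r) had an Ncr1 UMI in 155 of 158 barcodes (98.1%) in control and in 193 of 196 (98.5%) in CD4-Cre. Klrk1 was found in 209 of 237 control NK barcodes (88.2%, exact Clopper-Pearson 95% interval 83.4% to 92.0%) and in 294 of 310 in CD4-Cre (94.8%, 91.8% to 97.0%). Klre1 was found in 207 (87.3%) and 268 (86.5%). Klrd1 was found in 182 (76.8%) and 249 (80.3%), and Klrb1a in 192 (81.0%) and 262 (84.5%). These 4 genes of the common repertoire thus lay between 76.8% and 94.8% in both libraries.

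Klrb1b, the inhibitory NKR-P1 receptor, was the least often detected, in 103 control barcodes (43.5%) and 111 CD4-Cre barcodes (35.8%). Among the 4 Klra genes, Klra4 was found in 176 (74.3%) and 218 (70.3%), Klra8 in 144 (60.8%) and 192 (61.9%), and Klra9 in 141 (59.5%) and 169 (54.5%). Klra1 was found in 184 control barcodes (77.6%, 71.8% to 82.8%) and 195 CD4-Cre barcodes (62.9%, 57.3% to 68.3%), the only gene besides Klrk1 whose difference in share had an interval clear of 0. Intervals cover counting error only, here and below. With each barcode thinned to 1000 UMIs, detection was lower, and Klra1 was found in 45.1% of control and 29.5% of CD4-Cre barcodes, against 51.9% and 59.1% for Klrk1. As background, B barcodes of the pancreas (903 and 1321, median 3564 and 3422 UMIs) held any 1 of the 10 genes in at most 4 barcodes in each library, or 0.443% and 0.303%.

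**Figure D1:**
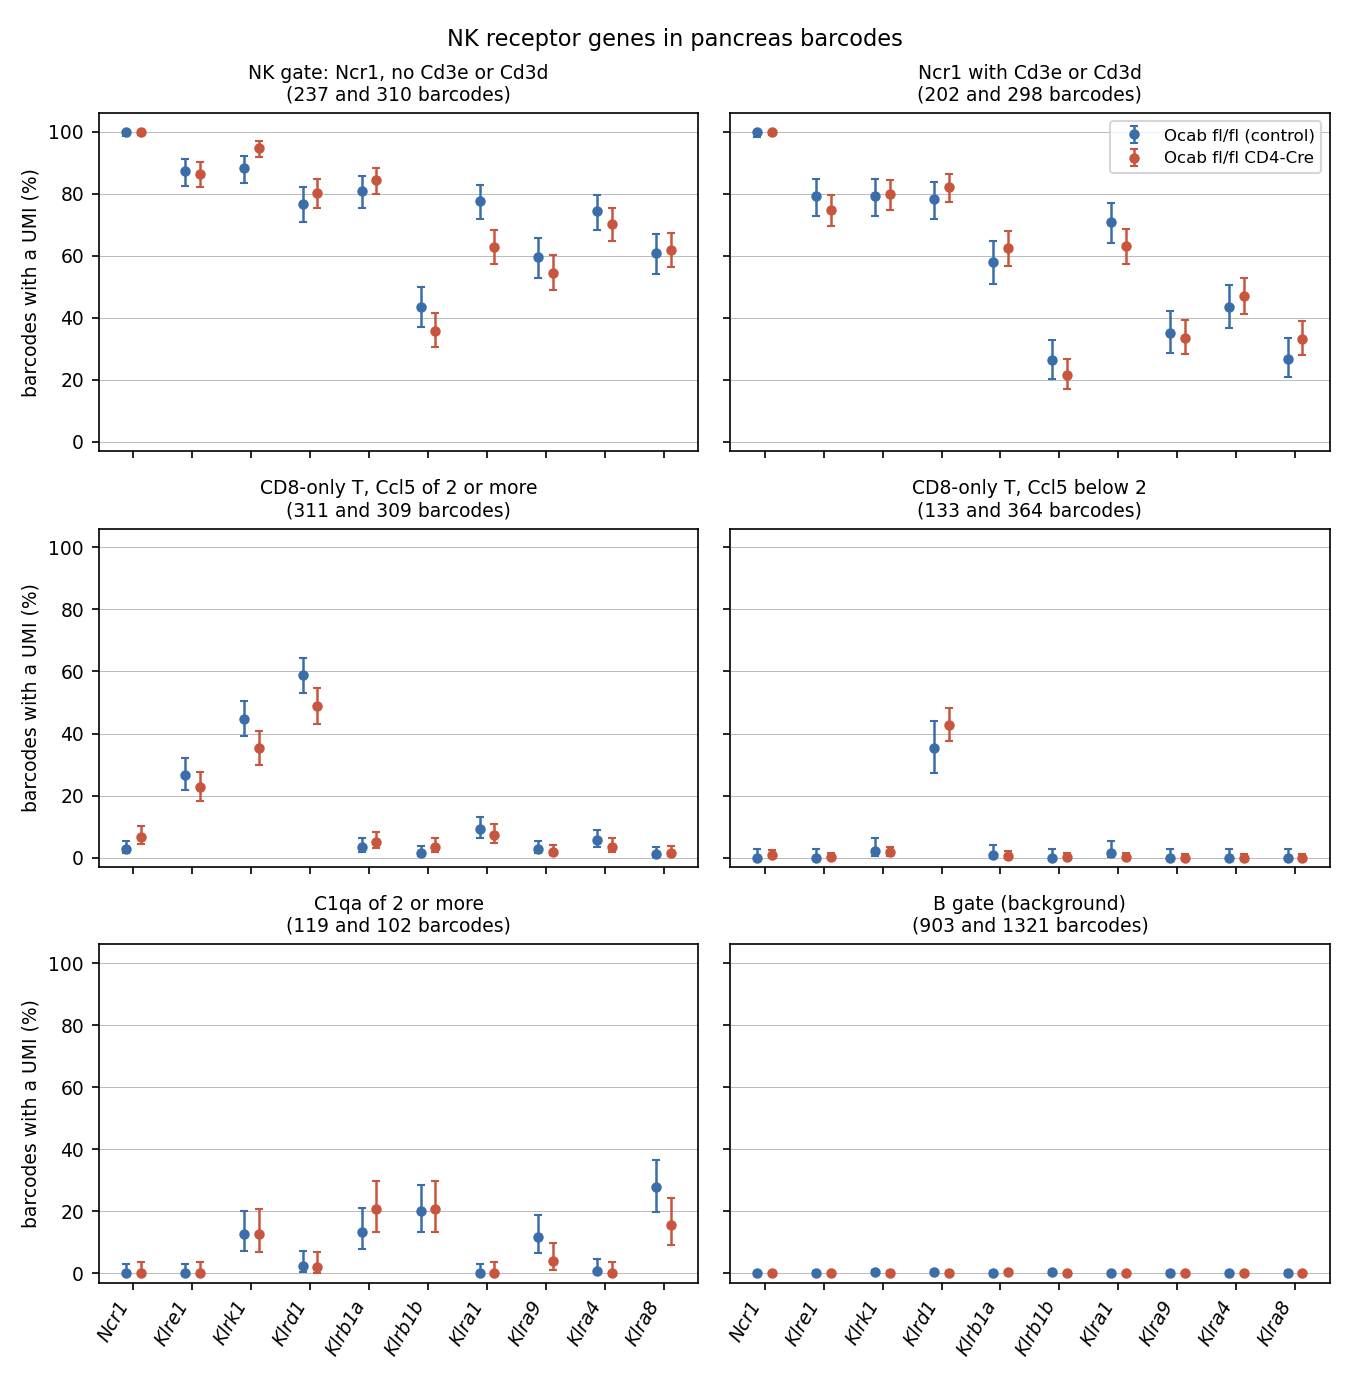
Share of pancreas barcodes with at least 1 UMI of each of the 10 receptor genes (vertical axis, percent) in 6 populations set by marker UMIs, for control (blue) and CD4-Cre (red); bars are exact 95% intervals for counting error only. Klrd1, Klrk1 and Klre1 stand out in CD8 T barcodes, and all 10 genes lie near 0 in B barcodes. In C1qa barcodes the highest share is that of Klra8 in control, and those of Klrb1a and Klrb1b in CD4-Cre. The 100% of Ncr1 in the upper panels is set by the gates.

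A typical NK barcode held several of the genes at a time. Of the 9 genes other than Ncr1, the mean number detected was 6.49 in control and 6.32 in CD4-Cre, with a median of 7 in both. At least 5 of the 9 were detected in 195 control barcodes (82.3%) and 246 CD4-Cre barcodes (79.4%). All 9 were detected in 29 and 28 barcodes, and none in 3 and 4. The difference in the mean, -0.17 genes per barcode, had an interval of -0.61 to 0.26, so it was not larger than the counting error.

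The 4 Klra genes were spread unevenly over the NK barcodes. All 4 were detected in 110 control barcodes (46.4%, 39.9% to 53.0%) and 117 CD4-Cre barcodes (37.7%, 32.3% to 43.4%). None was detected in 36 (15.2%, 10.9% to 20.4%) and 63 (20.3%, 16.0% to 25.2%). Barcodes with exactly 1 were the rarest class, at 20 (8.44%) and 25 (8.06%). Median depth did not set the empty class apart, being 3846.5 and 3905 UMIs in barcodes without a Klra UMI and 3723 and 4132 in those with 1 or more. At least 2 of the 4 were found in 76.4% of control and 71.6% of CD4-Cre barcodes, a difference of -4.76 points (-12.0 to 2.73).

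**Figure D2:**
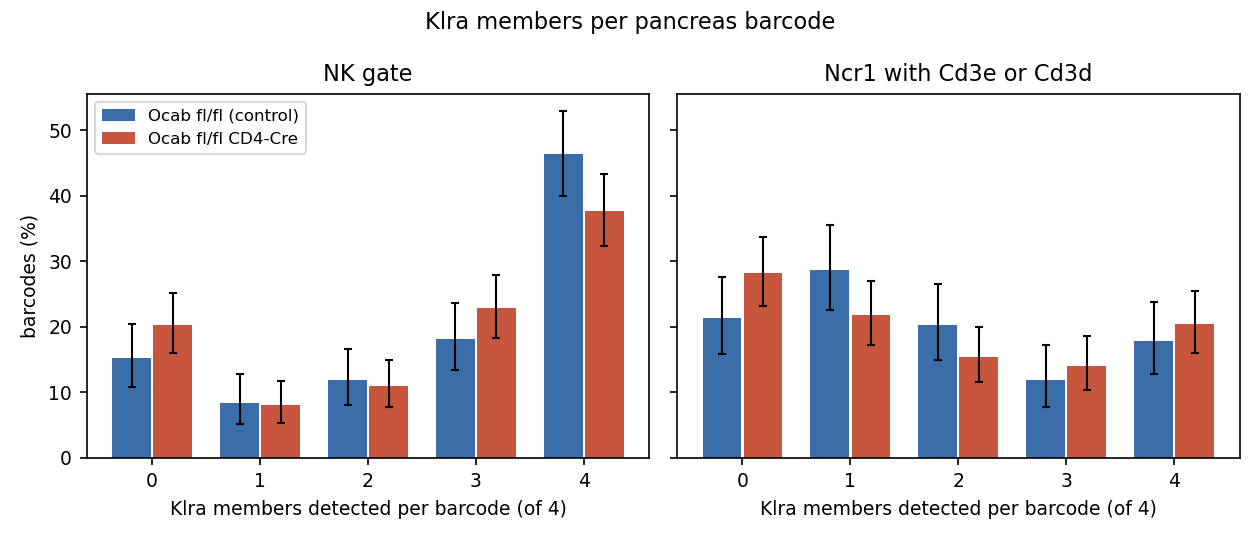
Number of the 4 Klra genes detected per pancreas barcode (horizontal axis) and the share of barcodes at each number (vertical axis, percent), in NK barcodes and in barcodes with both Ncr1 and Cd3e or Cd3d; bars are exact 95% intervals for counting error only. NK barcodes are most often at 4 (46.4% and 37.7%), with a second, smaller group at 0, whereas the barcodes with Cd3 are spread over all numbers.

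Activating and inhibitory Klra genes were mostly present together. At least 1 of Klra4 and Klra8 with at least 1 of Klra1 and Klra9 was found in 175 control NK barcodes (73.8%) and 209 in CD4-Cre (67.4%). Inhibitory genes alone were found in 18 (7.59%) and 16 (5.16%) barcodes, and activating genes alone in 8 (3.38%) and 22 (7.10%). The set of Klra4, Klra8 and Klra9 without Klra1 was found in 4 control barcodes (1.69%, 0.462% to 4.26%) and 22 CD4-Cre barcodes (7.10%, 4.50% to 10.5%). Klra1 alone of the 4 was found in 14 and 12 barcodes.

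Co-detection was measured for each of the 36 pairs of the 9 genes as the number of NK barcodes with both, over the number expected from the single shares within 3 depth classes. This ratio cannot exceed the inverse of the higher of the pair's single shares, so a pair with a gene as frequent as Klrk1 has little room above 1. All 6 pairs of Klra genes were found together more often than expected, at 1.17 to 1.35 times in control (median 1.24) and 1.24 to 1.40 times in CD4-Cre (median 1.31). The pair of Klra8 and Klra9 was the highest in both libraries, at 1.35 and 1.40, and it is also the pair with the most similar coding sequence, and the part of reads assigned to the wrong one of them was not tested. Klrb1b went the other way, at 0.85 to 0.95 times the expected number with the 4 Klra genes in control and 0.78 to 0.95 times in CD4-Cre. The 26 remaining pairs lay between 0.99 and 1.08 in control and between 0.98 and 1.09 in CD4-Cre. These ratios are descriptions across barcodes of 1 library each, with no test.

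**Figure D3:**
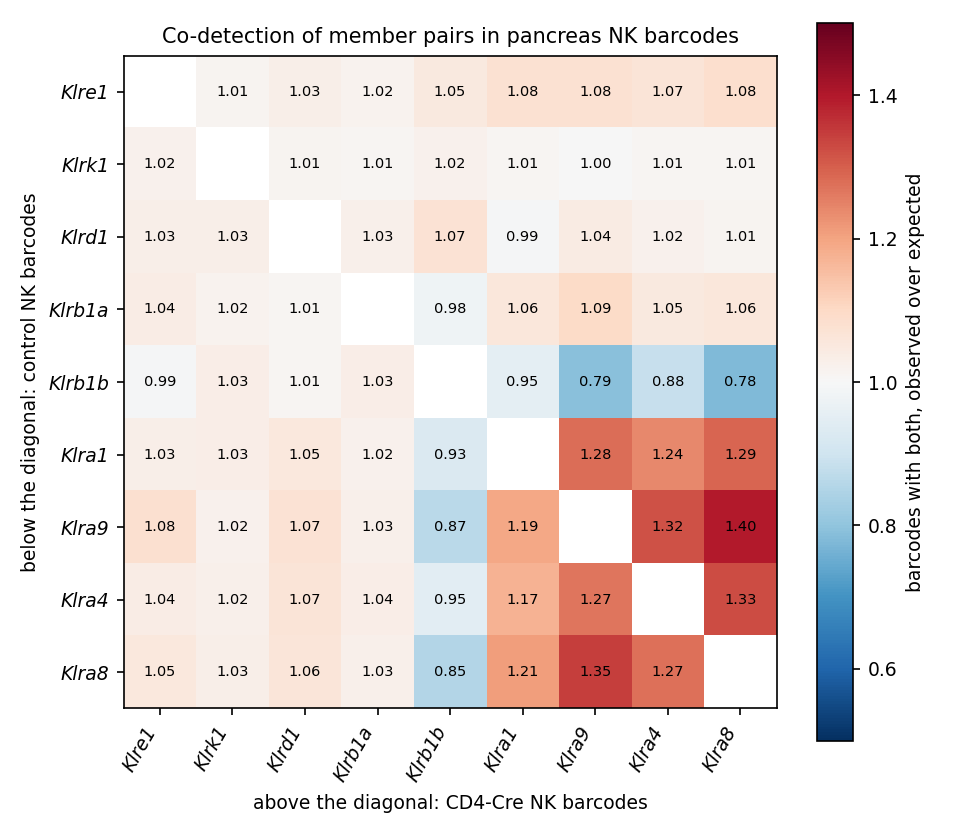
Observed over expected number of pancreas NK barcodes with both genes of a pair, expected within 3 depth classes; control is below the diagonal and CD4-Cre above it, and colour gives the same ratio as the printed number. The Klra pairs reach 1.35 in control and 1.40 in CD4-Cre, and Klrb1b with Klra8 is at 0.85 and 0.78.

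NK barcodes without a Klra gene carried other genes than the rest. Tmem176b, a membrane protein often listed for ILC1, was found in 23 of the 36 control barcodes without Klra (63.9%) and in 10 of the 201 with Klra (4.98%). In CD4-Cre it was found in 42 of 63 (66.7%) and 17 of 247 (6.88%). Cxcr6, a chemokine receptor of tissue-resident lymphocytes, was found in 21 of 36 (58.3%) against 33 of 201 (16.4%) in control, and in 49 of 63 (77.8%) against 55 of 247 (22.3%) in CD4-Cre. All 7 ILC1 markers had a higher share without Klra in both libraries, and for 4 of them (Tmem176a, Tmem176b, Cxcr6 and Il7r) the intervals did not overlap in either. The share of all genes with intervals apart between these barcodes is not given here. Those of Cd200r1 were apart in CD4-Cre only (27.0% against 3.64%, with 8.33% against 2.99% in control). The intervals of Itga1 (27.8% against 21.9% in control, 30.2% against 19.4% in CD4-Cre) and of Tnfsf10 overlapped in both.

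Eomes, Gzma and Prf1 went the other way. Eomes, a transcription factor of conventional NK cells, was found in 2 of 36 barcodes without Klra (5.56%) and 157 of 201 with Klra (78.1%) in control. In CD4-Cre the numbers were 11 of 63 (17.5%) and 210 of 247 (85.0%). The granule protease gene Gzma was found in 10 of 36 (27.8%) against 190 of 201 (94.5%), and in 17 of 63 (27.0%) against 231 of 247 (93.5%). Perforin (Prf1) was found in 14 of 36 (38.9%) against 170 of 201 (84.6%), and in 29 of 63 (46.0%) against 208 of 247 (84.2%). Of the 20 genes of an NK programme list, 7 had a lower share without Klra with intervals apart in both libraries, and none had a higher share with intervals apart. Here too the share of all genes with intervals apart is not given. Other genes of the list did not follow. Cx3cr1, a chemokine receptor of circulating NK cells, was found in 5 of 36 (13.9%) against 14 of 201 (6.97%), and in 7 of 63 (11.1%) against 7 of 247 (2.83%). The transcription factor gene Tbx21 was found in 61.1% against 58.7%, and in 68.3% against 67.2%. Among the 10 receptor genes, Klrb1b was found in 58.3% of the control barcodes without Klra and 40.8% of those with it, and in 49.2% and 32.4% in CD4-Cre. Its intervals overlapped in both libraries. Klre1 and Klrb1a were less often found without Klra, with intervals apart in CD4-Cre only (66.7% against 91.5%, and 69.8% against 88.3%). Klrk1 was too, with intervals apart in control only (72.2% against 91.0%). Those of Klrd1 overlapped in both libraries.

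The NK barcodes were then divided, after these values had been seen, by the number of 7 ILC1 markers with a UMI (Il7r, Cxcr6, Itga1, Tnfsf10, Cd200r1, Tmem176a and Tmem176b). No marker was found in 133 control barcodes (56.1%) and 152 CD4-Cre barcodes (49.0%), and at least 2 in 52 (21.9%) and 91 (29.4%), a difference of 7.41 points (-0.03 to 14.6). Median depth was 3602 and 3670.5 UMIs in the first class and 4200.5 and 4468 in the second. No Klra gene was found in 9 of 133 (6.77%) and 10 of 152 (6.58%) barcodes without a marker, and in 23 of 52 (44.2%) and 48 of 91 (52.7%) of those with at least 2. With exactly 1 marker, no Klra gene was found in 4 of 52 (7.69%) and 5 of 67 (7.46%). Within each of these classes the 2 libraries differed by less than the counting error.

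Each of the 4 Klra genes was less often found in barcodes with at least 2 ILC1 markers than in those without one. The same barcodes and markers gave the comparison by Klra above. This is therefore that association read from the other side, gene by gene, and no separate support for it. Klra8 was found in 97 of 133 (72.9%) against 13 of 52 in control and 123 of 152 (80.9%) against 19 of 91 (20.9%) in CD4-Cre. Klra4 was found in 85.7% against 36.5%, and in 85.5% against 33.0%. Klra9 was found in 67.7% against 28.8%, and in 65.1% against 23.1%. Klra1 was found in 85.7% against 48.1%, and in 77.0% against 30.8%. Klrb1b went the other way, at 44 of 133 (33.1%) against 34 of 52 (65.4%) in control and 36 of 152 (23.7%) against 52 of 91 (57.1%) in CD4-Cre. Klrk1 was at 86.5% or above in all 4 of these sets, and Klrb1a lay between 78.9% and 86.8%. With exactly 1 marker, the 4 Klra genes lay nearer to their shares without a marker. Klra8 was then found in 65.4% of control and 74.6% of CD4-Cre barcodes, and Klra4 in 82.7% and 86.6%. Klra9 was at 69.2% and 73.1%, and Klra1 at 86.5% and 74.6%. In barcodes without an ILC1 marker the Klra pairs had observed over expected ratios of 1.07 to 1.13 in control, and of 1.06 to 1.13 in the CD4-Cre library. The Klra genes are detected more often there (Klra1 in 85.7% against 77.6% over all control NK barcodes), which leaves less room above 1, so these ratios are not compared with those over all NK barcodes. There the pairs of Klrb1b with Klra genes had 0.89 to 1.02 and 0.92 to 1.09.

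**Figure D4:**
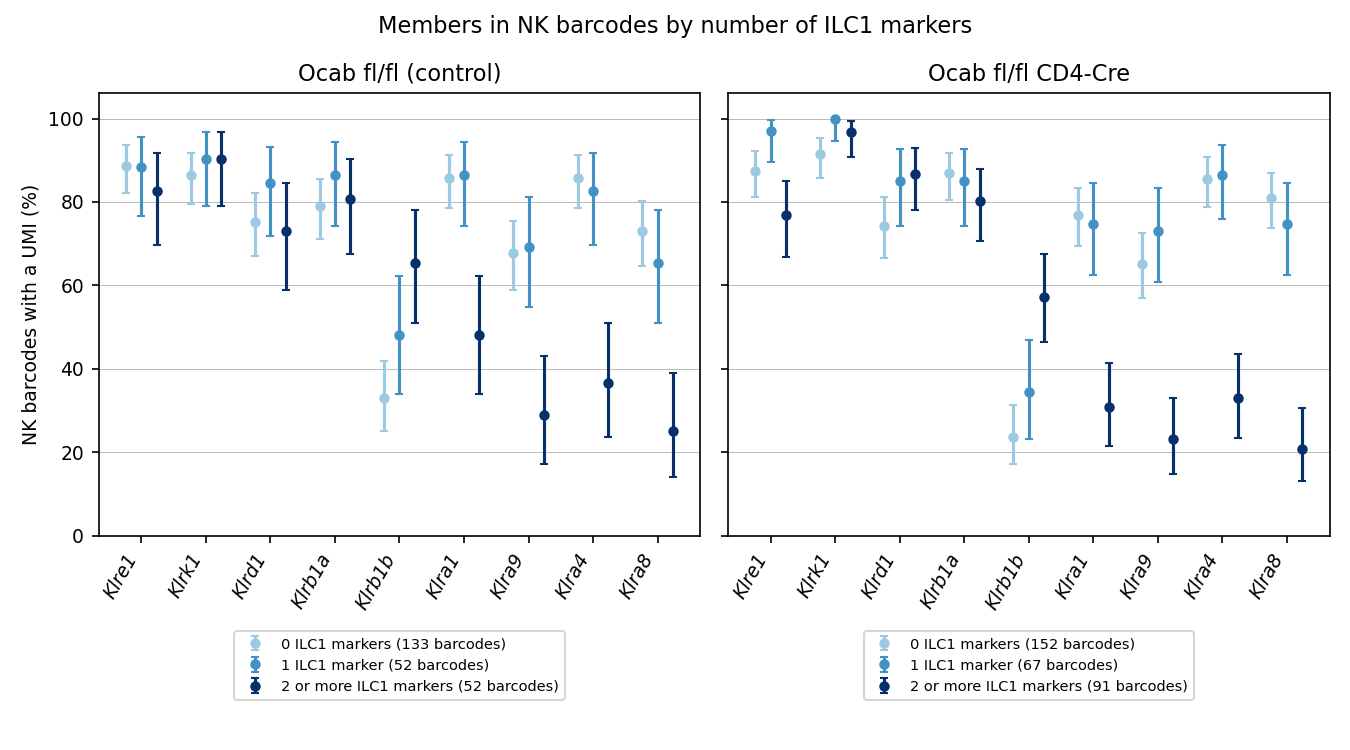
Share of pancreas NK barcodes with a UMI of each gene (vertical axis, percent), divided by the number of ILC1 markers detected (light to dark blue); bars are exact 95% intervals for counting error only. The 4 Klra genes are lower and Klrb1b is higher in barcodes with 2 or more markers, in both libraries, while Klrk1 and Klrb1a lie at similar shares in the classes.

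In NK barcodes, Klra1 had the largest difference of the 10 genes between the pancreas libraries. It had 610 UMIs over the control NK barcodes (614 CPM) and 482 over those of CD4-Cre (331 CPM), giving CD4-Cre over control on the log2 scale a ratio of -0.89 (exact conditional 95% interval -1.07 to -0.72). A gene with at least 20 UMIs is called past the fold here where its level differs by at least 1.5-fold. Klra1 was the only 1 of the 10 genes past it, in the lower direction, with none higher. Of 8110 genes tested in the same way in NK barcodes, 6.67% were past it lower and 11.2% higher, so a count of 1 in 10 is near that background. Among the 880 genes with at least 400 UMIs, where counting error is smaller, 90% lay between -0.32 and 0.41, and 13 genes were at or below Klra1.

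The lower level of Klra1 recurred in other populations of the pancreas. In the NK gate that used none of the 10 genes, Klra1 had 412 and 309 UMIs, and its log2 ratio was -0.90 (-1.11 to -0.68). In NK barcodes without an ILC1 marker it had 389 and 306 UMIs, a ratio of -0.64 (-0.86 to -0.42). It was found in 85.7% and 77.0% of them, a difference of -8.74 points (-17.6 to 0.43) that is within counting error. In CD8 T barcodes with Ccl5 the ratio was -0.84 (-1.38 to -0.31, 76 and 51 UMIs). These populations come from the same pair of libraries, and some share barcodes, so they are no replicates of one another. In double-negative T barcodes the ratio was -0.18 (-0.47 to 0.11), and in CD8 T barcodes of the lymph node, from other mice, it was -0.56 (-1.35 to 0.26, 21 and 43 UMIs), both within counting error.

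The 3 other Klra genes of the set had ratios nearer to 0. Klra8 had 522 CPM in control NK barcodes and 534 CPM in CD4-Cre, a ratio of 0.03 (-0.13 to 0.20). Klra9 had 444 and 424 CPM, a ratio of -0.07 (-0.25 to 0.11). Klra4 had 951 and 787 CPM, a ratio of -0.27 (-0.40 to -0.15), and -0.05 (-0.21 to 0.11) in barcodes without an ILC1 marker. The interval of Klra1 overlapped none of these 3. Outside the set, Klra7 (Ly49G) was at -0.56 (-0.77 to -0.35) and Klra5 at -0.61 (-1.10 to -0.12), with intervals that overlapped that of Klra1.

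Of the 6 genes of the set outside the Klra group, Klrb1b had the lowest ratio in NK barcodes, with 158 UMIs in each library, 159 against 109 CPM, or -0.55 (-0.88 to -0.22). Klrk1 had 769 and 857 CPM, a ratio of 0.16 (0.02 to 0.29). Ncr1 had 1859 and 1964 CPM, Klre1 713 and 672 CPM, Klrb1a 672 and 718 CPM, and Klrd1 545 and 486 CPM, with ratios between -0.16 and 0.10. The intervals of these last 4 genes included 0. Over the 10 genes the median ratio was -0.08, beside 0.07 over all genes tested. Summed over the 9 genes other than Ncr1, the level was 5388 CPM (5245 to 5535) in control and 4917 CPM (4803 to 5032) in the CD4-Cre library, for a log2 ratio of -0.13 (-0.18 to -0.08). The 5 of them outside the Klra group summed to 2858 and 2841 CPM, a ratio of -0.0084 under a choice made after seeing the data.

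**Figure D5:**
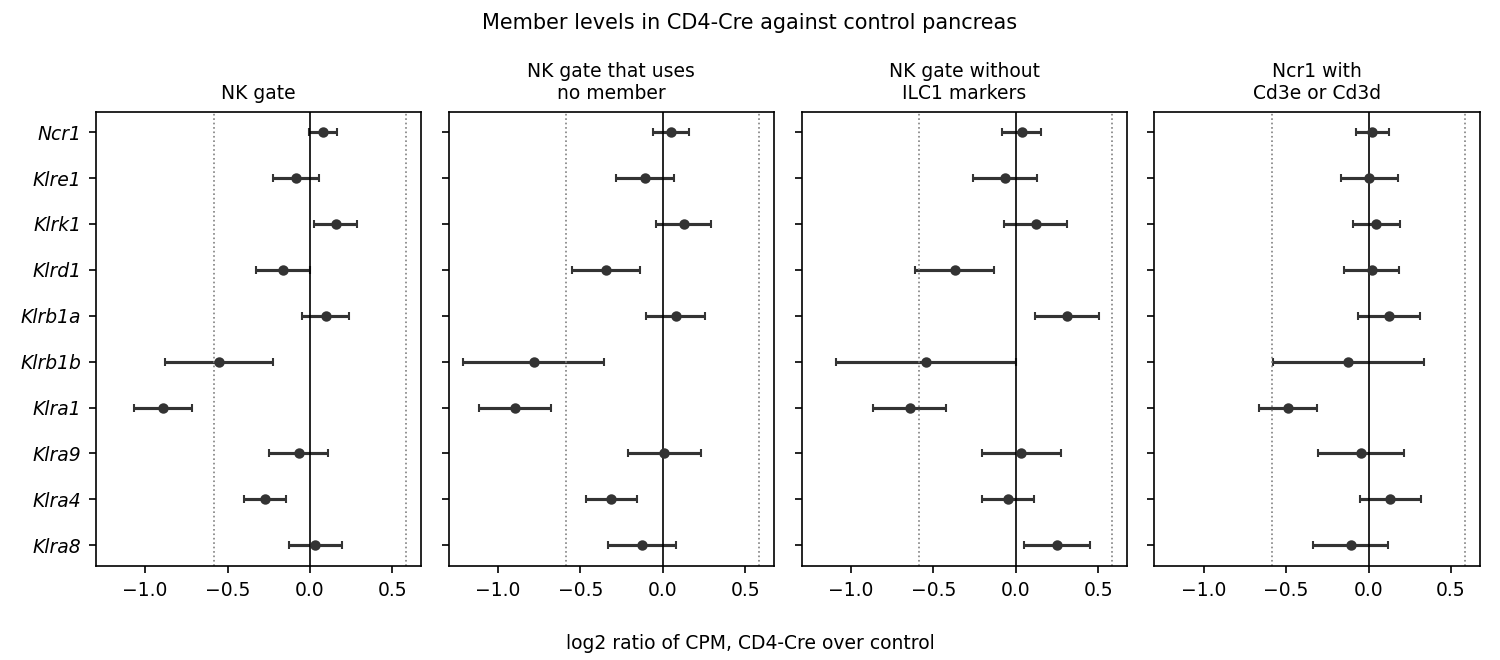
Log2 ratio of CPM, CD4-Cre over control, of each receptor gene in 4 populations of the pancreas; bars are exact 95% intervals for counting error only, and dotted lines mark 1.5-fold. Klra1 lies at -0.89, -0.90, -0.64 and -0.49 from left to right, with all 4 intervals below 0, and the other 3 Klra genes lie nearer to 0.

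The neighbouring genes and signalling partners of the receptors were read from lists. Of 17 other genes of the NK gene complex, 12 had at least 20 UMIs in NK barcodes, with 1 past 1.5-fold lower and none higher, and a median ratio of -0.22. The lowest were Klra5 and Klra7, with the ratios given above, and Klri1, a partner of Klre1, at -0.49. The highest were Klrc1 (NKG2A), the inhibitory partner of Klrd1, at 0.30, Klrb1f at 0.23 and Klra3 at 0.21. All 15 adapters and signalling genes were measured and none was past the fold. Hcst, the adapter of Klrk1, was at -0.47, Sh2d1b2 (EAT-2B) at -0.44 and Sh2d1b1 at -0.33, with Sh2d1a at 0.26, Ptpn6 at 0.23 and Cd247 at 0.08 at the other end.

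Of 13 other NK receptors, Crtam at -0.68 was past the fold, Cd69 and Fcgr3 stood at -0.13, and Slamf6 at 0.55, Cd226 at 0.54 and Cd160 at 0.26 were the highest. Of 13 ligand genes, 6 were measured and none was past it. Clec2i at -0.55, H2-T23 at -0.40 and Clec2d, the ligand of Klrb1b, at -0.28 were the lowest, and Cd48 at 0.11, H2-K1 at 0.05 and H2-D1 at -0.06 the highest. Of 20 genes of the NK programme, 3 were past the fold, all lower, and 17 of 20 were below 0. Over all 8110 genes tested, 3459 (42.7%) were below 0 and 541 (6.67%) were past the fold lower. The 3 programme genes were the chemokine gene Ccl4 at -1.15, the integrin gene Itgam at -0.81 and the fractalkine receptor gene Cx3cr1 at -0.62. The interval of Cx3cr1 included 0 (-1.28 to 0.04). Prdm1 at 0.35, Tbx21 at 0.11 and Nfil3 at 0.10 were the highest of that list.

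Many barcodes held Ncr1 together with CD3 chains. Of all pancreas barcodes with an Ncr1 UMI, 202 of 439 in control (46.0%, 41.3% to 50.8%) and 298 of 608 in CD4-Cre (49.0%, 45.0% to 53.1%) also had a Cd3e or Cd3d UMI, with a median of 10 and 11 such UMIs. This class, described after it was seen, had median depths of 5119.5 and 5341 UMIs and median doublet scores of 0.51 and 0.55, beside 0.45 and 0.48 over all kept barcodes and 0.52 and 0.57 in CD8 T barcodes with Ccl5. Median scores were 0.43 and 0.45 in NK barcodes and 0.45 and 0.46 in CD4 T barcodes. The class with Ncr1 and CD3 held Fcer1g in 96.5% and 95.3% and Il2rb in 97.0% and 97.0%. Trdc, the constant segment of the delta chain, was found in 56.9% and 54.7% of it. T barcodes with at least 3 CD3 UMIs and no Ncr1 (2047 and 3734) held Fcer1g, a signalling adapter of NK receptors, in 4.59% and 3.96%, and Trdc in 4.45% and 3.08%. NK barcodes held Fcer1g in 99.2% and 98.1%. The part of doublets in the class with Ncr1 and CD3 was not tested.

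In these barcodes several of the genes were less often found than in NK barcodes. Klrd1 was found in 158 of 202 (78.2%) and 245 of 298 (82.2%), Klrk1 in 160 (79.2%) and 238 (79.9%), and Klre1 in 160 (79.2%) and 223 (74.8%). Klra1 was found in 143 (70.8%) and 188 (63.1%), whereas Klra8 was found in 54 (26.7%) and 99 (33.2%) and Klra9 in 71 (35.1%) and 100 (33.6%). Klra4 was found in 43.6% and 47.0%, Klrb1a in 57.9% and 62.4%, and Klrb1b in 26.2% and 21.5%. Klra4, Klra8, Klra9, Klrb1a and Klrb1b lay below their NK shares with intervals that did not overlap, in both libraries. The share of all genes that lay apart between these gates, which also differ in depth, is not given here. The intervals of Klrk1 and Klre1 overlapped in control and not in CD4-Cre, and those of Klra1 and Klrd1 overlapped in both. Exactly 1 Klra gene was found in 58 (28.7%) and 65 (21.8%) of these barcodes, and all 4 in 36 (17.8%) and 61 (20.5%). On the level scale, Klra1 had 416 and 296 CPM, a log2 ratio of -0.49 (-0.67 to -0.31), and the other 9 genes had ratios between -0.13 and 0.13, with intervals that included 0.

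Gamma-delta T barcodes were set as those with Cd3e or Cd3d, Trdc and no Trac UMI, 139 in control pancreas and 197 in CD4-Cre, and 91 (65.5%) and 121 (61.4%) of them held Ncr1. They therefore overlap the class just described. Klrk1 was found in 89 (64.0%) and 118 (59.9%), Klrd1 in 84 (60.4%) and 126 (64.0%), and Klre1 in 77 (55.4%) and 99 (50.3%). Klra1 was found in 69 (49.6%) and 84 (42.6%), and Klra8 in 28 (20.1%) and 43 (21.8%). Over the 10 genes, 4.25 and 4.17 were detected per barcode. After removal of barcodes with Ncr1 or Tyrobp, a choice made after seeing the data, 39 and 68 barcodes remained with 0.795 and 0.750 genes each. Ncr1 is 1 of the 10 genes counted, so its part of this fall is set by the removal. Klrd1 was then found in 10 (25.6%) and 22 (32.4%) and Klrk1 in 13 (33.3%) and 13 (19.1%), while Klra8 and Klra9 were found in none, which allows shares of up to 7.69% and 4.41%. Klra1 had 405 and 247 CPM in the whole gate, a ratio of -0.71 (-0.96 to -0.46), and Klra8 had 251 and 166 CPM, a ratio of -0.60 (-0.91 to -0.28).

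In the lymph node the gamma-delta gate held 18 and 48 barcodes, and none of them had an Ncr1 UMI, which allows shares of up to 16.7% and 6.25%. Klrd1 was the only one of the genes found in more than 2 barcodes there, in 3 of 18 (16.7%) and 17 of 48 (35.4%). Median depths were 4496 and 3927.5 UMIs, and those of the pancreas gate were 4146 and 4400. The tissues also differ in age, selection and mice, which cannot be told apart.

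Double-negative T barcodes (Cd3e or Cd3d, and no Cd4, Cd8a, Cd8b1 or Trdc UMI) numbered 788 and 1064 in the pancreas. Klrd1 was found in 124 (15.7%) and 175 (16.4%), Klrk1 in 95 (12.1%) and 128 (12.0%), Ncr1 in 75 (9.52%) and 111 (10.4%), and Klre1 in 72 (9.14%) and 103 (9.68%). Each Klra gene was found in 8.38% or less. The 10 genes gave 0.769 and 0.794 detections per barcode, with intervals that overlapped. In the 90 and 129 such barcodes with at least 5000 UMIs the numbers were 2.71 and 2.89, and in the 655 and 890 without Ncr1 or Tyrobp they were 0.171 and 0.154. Ncr1 could not be counted in the latter barcodes. In the lymph node, 609 and 784 double-negative barcodes held Klrd1 in 23 (3.78%) and 22 (2.81%) and none of the other 9 genes in more than 4 barcodes.

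CD8 T barcodes were those with CD3, Cd8a or Cd8b1, and no Cd4 UMI, and they were read by Ccl5, a chemokine gene of effector and memory cells. With at least 2 Ccl5 UMIs there were 311 in control pancreas and 309 in CD4-Cre (median 3821 and 4338 UMIs). Klrd1 was found in 183 (58.8%, 53.1% to 64.4%) and 151 (48.9%, 43.2% to 54.6%). Klrk1, a costimulatory receptor in CD8 T cells, was found in 139 (44.7%, 39.1% to 50.4%) and 109 (35.3%, 29.9% to 40.9%), and Klre1 in 83 (26.7%) and 70 (22.7%). Klra1 was found in 29 (9.32%) and 23 (7.44%), and each of the other 6 genes in 6.80% or less. The median barcode held 1 of the 9 genes other than Ncr1, and 80 and 120 barcodes held none.

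The Klrd1 and Klrk1 levels of these CD8 T barcodes were lower in CD4-Cre by small amounts. Klrk1 and Klrd1 were found together in 105 (33.8%, 28.5% to 39.3%) and 84 (27.2%, 22.3% to 32.5%). The log2 ratio of level was -0.25 (-0.44 to -0.06) for Klrd1 and -0.22 for Klrk1, and it was -0.30 (-0.61 to 0.02) for Klre1. Of the 9 genes with at least 20 UMIs, Ncr1 at 0.72, Klrb1b at 0.96 and Klrb1a at 0.59 were past 1.5-fold higher, and Klra1 alone was past it lower. Among 8900 genes tested in this population 7.25% were past it higher and 7.56% lower. The 3 higher genes rest on few barcodes, with Ncr1 in 9 (2.89%) and 21 (6.80%). The ratios of Klrb1b (-0.51 to 2.63) and Klrb1a (-0.13 to 1.34) were within counting error. That of Ncr1 had an interval of 0.27 to 1.19. Without Ncr1 or Tyrobp barcodes, 282 and 274 remained, with Klrd1 in 162 (57.4%) and 123 (44.9%) and Klrk1 in 120 (42.6%) and 82 (29.9%). Klrb1a and Klrb1b were then found in at most 3 barcodes of a library. Summed over the 10 genes the level was 779 CPM (736 to 824) and 689 CPM (652 to 727), a ratio of -0.18 (-0.29 to -0.06). Without doublet removal the sums were 737 and 772 CPM and the ratio was 0.068, and without Ncr1 barcodes it was -0.42. The last ratio holds no Ncr1 UMI, by the rule that set it.

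Of the CD8 T barcodes with fewer Ccl5 UMIs, 133 in control and 364 in CD4-Cre, Klrd1 was found in 47 (35.3%) and 156 (42.9%), at 125 and 170 CPM and a ratio of 0.45 (0.08 to 0.83). Klrk1 was found in 3 and 6 of them, and Klre1 in 0 and 1. Klrd1 was thus the one receptor gene present in these barcodes at a share far above that in B barcodes. The same held in the lymph node, where Klrd1 was found in 332 of 682 and 665 of 1418 CD8 T barcodes with low Ccl5, and Klrk1 in 1 and 1.

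In the lymph node the CD8 T gate with Ccl5 held 22 and 69 barcodes (median 6382 and 6263 UMIs). Klrd1 was found in 16 (72.7%, 49.8% to 89.3%) and 44 (63.8%, 51.3% to 75.0%), Klra1 in 6 (27.3%) and 19 (27.5%), and Klre1 in 3 (13.6%) and 10 (14.5%). Klrk1 was found in 5 (22.7%) and 6 (8.70%). Ncr1, Klrb1a and Klrb1b were found in none, which allows shares of up to 13.6% and 4.35%. Klra1 was the second most frequent of the 10 genes here in both libraries. The 10 genes summed to 577 CPM in control and 437 CPM in CD4-Cre, for a log2 ratio of -0.40 (-0.77 to -0.02), where size factors move the centre of all genes by 0.20 to 0.22. Of the 5 genes with at least 20 UMIs, all were below 0, as were 1971 of 3448 genes tested (57.2%). Klra4 was past 1.5-fold lower, at -0.77 from 9 and 16 UMIs. Among all genes tested, 18.2% were past it lower and 11.0% higher.

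CD4 T barcodes held the genes rarely, Klrd1 being found in 60 of 912 and 148 of 2070 in the pancreas and in 39 of 1266 and 68 of 2712 in the lymph node. Among myeloid barcodes of the pancreas, those with at least 2 C1qa UMIs (119 and 102, median 8774 and 9026 UMIs, described after they were seen) held Klra8 in 33 (27.7%, 19.9% to 36.7%) and 16 (15.7%, 9.24% to 24.2%). Klra8 had 67 and 21 UMIs there, 57.3 and 19.5 CPM, a log2 ratio of -1.56 (-2.34 to -0.83). Klra9 was found in 14 (11.8%) and 4 (3.92%). Klrb1b was found in 24 (20.2%) and 21 (20.6%), Klrb1a in 16 (13.4%) and 21 (20.6%), and Klrk1 in 15 (12.6%) and 13 (12.7%). Ncr1, Klre1 and Klra1 had no UMI in these barcodes, which allows shares of up to 2.52% and 2.94%.

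The pattern of the 10 genes over cell populations was compared with that of 10552 genes over 25 profiles, each a population in 1 library. The non-member genes with the highest Pearson correlation to the mean of the 10 were Ctla2b (0.99), Klra7 (0.98), Klrc3 (0.98), Klrb1f (0.98) and Klri2 (0.97), on log2(CPM + 10). Among the 10, Klrd1 followed the mean of the other 9 least, at 0.71, then Klrb1b at 0.88 and Klrk1 at 0.93, and the remaining 7 lay at 0.96 to 0.97. Profiles of 1 library share their depth and preparation and some share barcodes, so these values are descriptions.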

How the data were processed

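Single-cell 5′ libraries were prepared with a 10x Genomics kit, per the labels' protocols. The deposited values are counts of UMIs per gene and barcode, without normalization. The submitters' processing notes name Cell Ranger and mm10, and the headers of the matrices give software version 3.0.0. Other settings are not given in the sources used here. Libraries listed 3059 to 6963 barcodes. Barcodes were kept with at least 500 genes and at most 10% mitochondrial UMIs, and 75 to 388 doublets per library were removed at 0.8% per 1000 barcodes, by a nearest-neighbour score against simulated doublets (2 per barcode, 2000 variable genes, 30 components).

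Barcodes were gated on marker UMIs, not clustered. Each gate gave a summed UMI count per gene, divided by all UMIs of the gate (CPM). Shares have exact Clopper-Pearson 95% intervals, sums exact Poisson intervals, ratios exact conditional binomial intervals and share differences Newcombe intervals. With 1 library per group there is no test between genotypes and no p-value, and each difference compares libraries. A count of 0 is given the limit that 3 counts allow. The genes, lists and rules were chosen with earlier results of these data known. All 10 receptor genes are named, with the 3 highest and 3 lowest ratios in pancreas NK barcodes of each context list, and the 5 genes most like the mean pattern. Positions and sequences come from GENCODE M21 (GRCm38), matched by gene identifier. Alternatives were other filters, gates, weights and thinning, TMM library sizes (edgeR 4.0.16) and size factors (DESeq2 1.42.0) in R 4.3.3. Interval and ratio code was tested on simulated data. Other steps used Python 3.11.15, numpy 2.4.6, scipy 1.17.1, pandas 2.3.3, scikit-learn 1.9.0 and matplotlib 3.10.9.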

Additional observations from a re-analysis of the deposited data

How the results depend on the processing

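No paired analysis was possible because each group is 1 library. For the same reason no difference has a check between mice, and leaving out a library leaves no comparison. The difference between libraries in receptor genes per NK barcode moved by less than its counting error under all 11 alternatives (-0.31 to -0.02). So did the difference in the share of NK barcodes with 2 or more Klra genes (-8.83 to 0.09 points, 1 of 11 above 0). The summed log2 ratio in lymph node CD8 T barcodes (-0.45 to -0.03 in 12) did too. Detection itself fell on thinning to 1000 UMIs, with Klre1 in 55.3% of control NK barcodes instead of 87.3%. The summed log2 ratio of 9 genes in NK barcodes, -0.13, was below 0 in all 13. It moved to -0.077 with doublets removed at 1.6% per 1000 and to -0.078 with Cd3g and Trac also absent. It was -0.19 with the gate that used none of the genes and -0.19 with TMM library sizes. Among choices made after seeing the data, it was -0.0084 without the Klra genes and -0.034 without ILC1 markers. The sum in pancreas CD8 T barcodes with Ccl5, -0.18, became 0.058 with all listed barcodes, 0.068 without doublet removal, -0.37 with equal weight per barcode, -0.42 without Ncr1 barcodes and -0.34 without Ncr1 or Tyrobp barcodes. Genes per gamma-delta barcode, 4.25 and 4.17, became 3.88 in control with at least 2 Trdc UMIs, 2.19 and 1.80 after thinning, and 0.795 and 0.750 without Ncr1 or Tyrobp. Genes per double-negative barcode, 0.769 and 0.794, became 2.71 and 2.89 above 5000 UMIs, 0.378 and 0.368 after thinning, and 0.171 and 0.154 without Ncr1 or Tyrobp. Removal of Ncr1 barcodes takes Ncr1 out of the genes counted or summed, and that part of these moves is fixed by the filter. The cause of the rest was not tested. The Klra1 ratio in NK barcodes ran from -0.95 to -0.64 over 12 alternatives, and Klra8 was above 0 in 6 of its 12. In the lymph node CD8 T gate, TMM moved the centre of all genes by 0.22 and DESeq2 size factors by 0.20. Populations of 18 to 69 lymph node barcodes limit what could be detected there.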

Other observations

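Dendritic cell barcodes of the pancreas carried some of the receptor genes without Ncr1, in groups chosen after the data were seen. Xcr1 barcodes (15 in control and 27 in CD4-Cre, median 16547 and 16120 UMIs) held Klrk1 in 10 (66.7%) and 14 (51.9%) and Klrb1b in 7 (46.7%) and 13 (48.1%). Cd209a barcodes (60 and 66, median 12667 and 13037.5 UMIs) held Klrb1b in 25 (41.7%) and 28 (42.4%), Klrk1 in 22 (36.7%) and 22 (33.3%), Klrb1a in 19 (31.7%) and 10 (15.2%), and Klrd1 in 12 and 12. These depths are several times those of B barcodes, where at most 4 barcodes of a library held any 1 of the genes.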
